A study of Homo sapiens with 4 samples.

Results

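The genes described here handle haem and the iron that its breakdown releases. They were listed by symbol: HMOX1, HMOX2, BLVRA and BLVRB for haem breakdown, FTH1, FTL and NCOA4 for ferritin, TFRC and SLC40A1 for iron import and export, and IREB2 for iron sensing. Each gene was read from its brightest probe set that carries a single gene symbol. Of the 10 listed genes, 8 had such a probe set, each of them 1 only, among 18417 genes on the array. FTH1 and IREB2 were not analysed here. Levels were measured in MiaPaCa2, an established human pancreatic carcinoma line, on Human Gene 1.0 ST arrays. Arrays held total RNA of cultures given vehicle for 24 h (2 arrays) or LY101-4B at 50 µM for 24 h (2 arrays). The series title calls LY101-4B an E2F inhibitor and asks how sensitive the line is to it. A protocol field of the same samples names LY101-4D at 25 µM, and titles, agent labels and design text were followed here. The series' design text states biological replicates. P-values here rest on the spread of 2 arrays per group, which limma draws toward a variance shared by all tested probe sets. Values are log2 units after RMA, which puts the arrays on a common scale. In a bulk culture, fewer cells of a kind and less RNA per cell cannot be told apart.

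Haem oxygenase opens the haem ring and releases iron, carbon monoxide and biliverdin. HMOX1 encodes the inducible enzyme and HMOX2 the constitutive one, and biliverdin reductases turn biliverdin into bilirubin. Freed iron is stored in ferritin shells of heavy (FTH1) and light (FTL) chains, and brought back out when NCOA4 carries ferritin to lysosomes. Cells take up iron from outside through the transferrin receptor (TFRC) and export it by ferroportin (SLC40A1). NRF2, paired with small MAF proteins, raises HMOX1 and ferritin genes, and BACH1, a haem-sensing repressor, holds them down. The iron regulatory proteins, encoded by ACO1 and IREB2, bind RNA hairpins called iron-responsive elements. They block ferritin translation and stabilise TFRC mRNA when iron is scarce.

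HMOX1, BLVRB and FTL rose with LY101-4B, and no member fell. HMOX1 rose 6.02-fold, BLVRB 1.57-fold and FTL 1.57-fold, while HMOX2, BLVRA, NCOA4, TFRC and SLC40A1 did not pass the threshold, an adjusted p of 0.05. Thus 3 of 8 measured members were called higher by limma, beside 9.10% of the 21214 probe sets tested. The count of members called lower was 0 by limma, also at an unadjusted p under 0.05, beside 10.5% of probe sets called lower. Groups did not overlap for 5 of 8 members, beside 58.0% of all tested probe sets. The members' median difference was 0.025 log2 units, against 0.0047 over all 18417 genes. Without vehicle replicate 2 the differences of HMOX1, BLVRB and FTL were 2.69, 0.54 and 0.59 log2 units. The calls of BLVRB and FTL were then lost, and the share of all probe sets called higher fell as well.

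**Figure D1:**
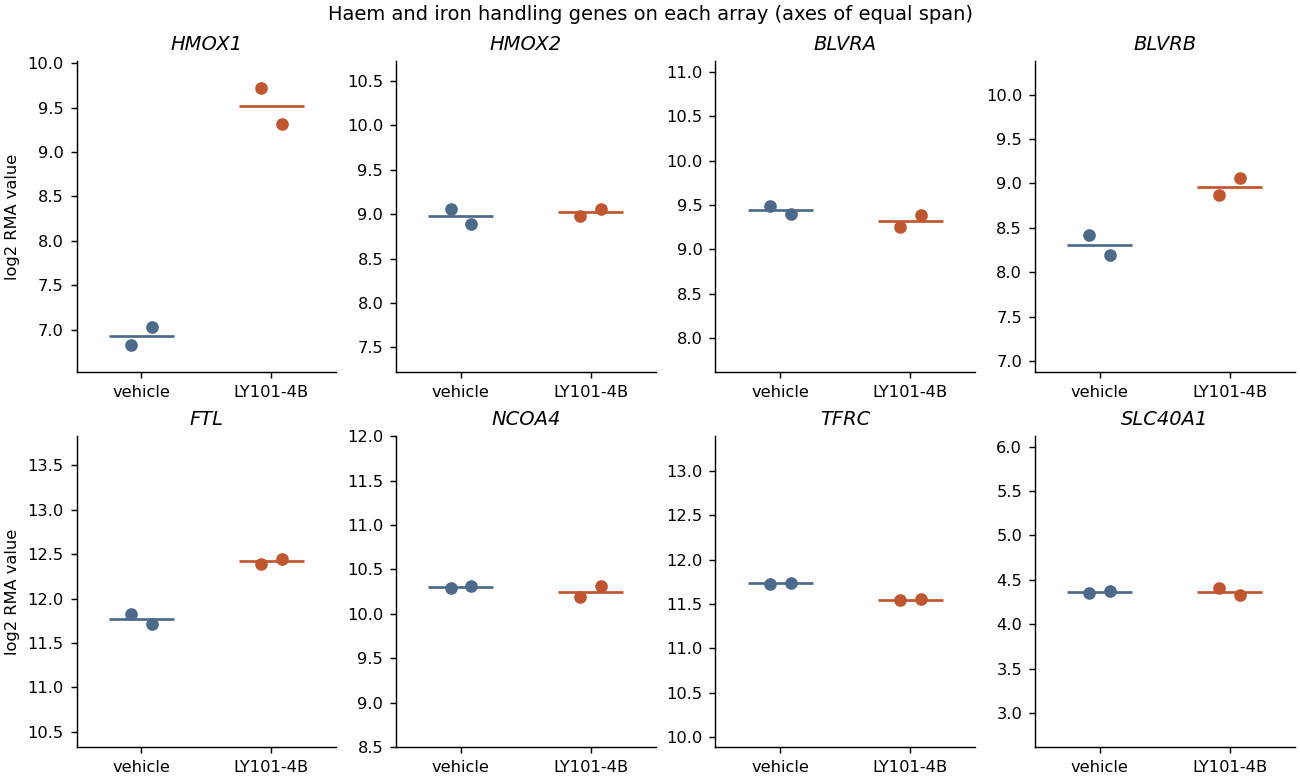
Log2 RMA values of the 8 measured members on each of the 4 arrays, vehicle in blue and LY101-4B in orange, with short lines at the group means (n = 2 arrays each); every vertical axis spans the same number of log2 units. HMOX1 lies between 6.83 and 7.03 in vehicle and between 9.32 and 9.72 with LY101-4B, and the shifts of BLVRB and FTL are smaller.

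Sequence is shown for the members on which the comparison of paralogues and of ferritin turns. RefSeq windows of 300 bases (GRCh38.p14), from 250 bases before to 50 bases after a transcript's start, were matched by symbol for 8 of the 10 listed genes and gave 11 windows. HMOX1 and FTH1 had none. The light chain carries an iron-responsive element in its 5′ leader, and the last 30 bases of the FTL window hold the start of it. They lie at chr19:48965329-48965358 on the + strand, or positions 21 to 50 of the transcript counted from 1, with the hairpin's loop letters (CAGTGN, positions 39 to 44) in capitals:
FTL leader: gtctgtctcttgcttcaaCAGTGTttggac

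The 250 bases before the start are given next for FTL and BLVRB, which rose, and for BLVRA, which did not pass. Capitals mark the letters of a GC box core (GGGCGG, the kind of site bound by SP1) or a CCAAT box (CCAAT, the kind bound by NF-Y), on either strand. FTL lies at chr19:48965059-48965308 (+ strand), BLVRB at chr19:40465746-40465995 (- strand) and BLVRA at chr7:43758430-43758679 (+ strand), each written 5′ to 3′ along its gene:
FTL: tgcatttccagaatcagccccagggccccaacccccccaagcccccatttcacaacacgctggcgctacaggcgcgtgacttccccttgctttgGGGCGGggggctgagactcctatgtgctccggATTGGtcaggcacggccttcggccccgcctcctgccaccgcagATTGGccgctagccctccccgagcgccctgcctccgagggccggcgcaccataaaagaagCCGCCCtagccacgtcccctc
BLVRB: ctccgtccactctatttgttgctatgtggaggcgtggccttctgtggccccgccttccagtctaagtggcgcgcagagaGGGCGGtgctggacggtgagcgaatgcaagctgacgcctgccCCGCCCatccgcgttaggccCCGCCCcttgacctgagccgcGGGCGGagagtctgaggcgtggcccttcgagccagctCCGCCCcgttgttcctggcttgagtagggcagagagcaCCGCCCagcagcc
BLVRA: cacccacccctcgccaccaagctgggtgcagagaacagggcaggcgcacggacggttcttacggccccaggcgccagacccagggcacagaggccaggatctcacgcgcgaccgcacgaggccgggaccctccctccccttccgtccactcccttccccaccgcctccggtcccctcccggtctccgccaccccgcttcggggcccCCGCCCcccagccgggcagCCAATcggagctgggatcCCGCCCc

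The FTL window held a CCAAT box on the reverse strand at -124 to -120 and another at -81 to -77, and BLVRA held 1 at -25 to -21, while the BLVRB window held none. GC box cores numbered 6 before BLVRB, 2 before FTL and 2 before BLVRA. Over all 35116 windows, 45.0% held a GC box core and 34.6% a CCAAT box. The core of the antioxidant response element, TGACNNNGC, to which NRF2 and BACH1 bind with small MAF proteins, was in none of these 3 windows. It was found in 1 of the 11 member windows, the downstream start of NCOA4 (positions 24 to 32, where it overlaps the letters CAGTGN at 27 to 32), and in 13.3% of all windows. The AP-1 letters TGAGTCA and the ATF4 composite core TGATGCAA were in 0 of 11 member windows, against 4.95% and 0.866% of all. The E-box CACGTG was in 1, at HMOX2, against 7.26%. The loop letters CAGTGN, searched on the transcribed strand of the 50 transcribed bases, were in 2 member windows and in 6.36% of all. Except for that loop both strands were searched, matches are letters and not sites, and a window without a match says nothing of more distant elements.

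Of the 4 haem breakdown genes 2 were called higher and 0 lower by limma, beside 9.10% and 10.5% of all probe sets. HMOX1 read 6.83 and 7.03 log2 units on the vehicle arrays and 9.72 and 9.32 on the LY101-4B arrays. The groups lay far apart, and the gap between the LY101-4B arrays, 0.40, was the widest replicate gap of any member. The difference was 2.59 ± 0.16 log2 units (SE; 95% interval 2.20 to 2.98; limma adjusted p 0.00077). Against the vehicle mean it was 2.79 on the first LY101-4B array and 2.39 on the other. The call held in all 13 alternative settings, with differences from 2.39 to 2.79 and adjusted p from 1.8e-05 to 0.011.

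HMOX2, the constitutive paralogue, read 9.06 and 8.88 with vehicle and 8.98 and 9.06 with LY101-4B. The groups overlapped. Its difference was 0.05 ± 0.10 log2 units (95% interval -0.21 to 0.30, limma adjusted p 0.809), and it changed sign to -0.019 with arrays centred on their medians and to -0.044 without vehicle replicate 2.

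BLVRB, which encodes a biliverdin and flavin reductase, read 8.42 and 8.20 with vehicle and 8.87 and 9.06 with LY101-4B. Both treated arrays lay above both vehicle arrays. The difference was 0.65 ± 0.12 log2 units (95% interval 0.36 to 0.95, limma adjusted p 0.016). It kept its direction but did not pass with vehicle replicate 2 left out (0.54, adjusted p 0.1001), with LY101-4B replicate 2 left out (0.56, adjusted p 0.052) and with all 33297 rows of the table tested (adjusted p 0.059).

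BLVRA, the main biliverdin reductase of adult tissue, read 9.49 and 9.40 with vehicle and 9.26 and 9.39 with LY101-4B. The groups nearly touched without overlapping, and the difference of -0.12 ± 0.10 log2 units did not pass (95% interval -0.35 to 0.12, limma adjusted p 0.475).

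**Figure D2:**
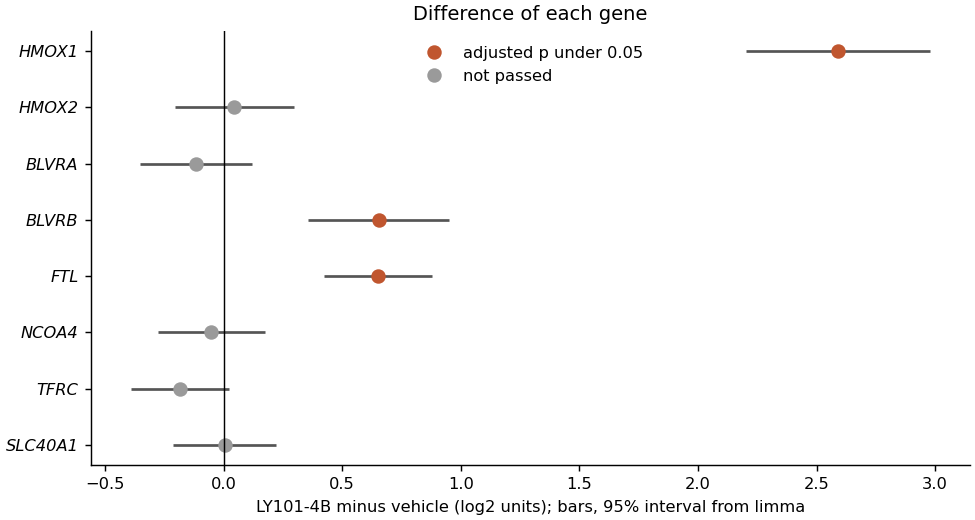
Difference between LY101-4B and vehicle in log2 units for each measured member, with the 95% interval from limma (n = 2 arrays per group); orange points passed an adjusted p of 0.05. The intervals of HMOX1 (2.20 to 2.98), BLVRB (0.36 to 0.95) and FTL (0.42 to 0.88) lie above 0, and the other 5 include 0.

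Whether paralogues changed unequally was read from the difference of 2 genes' log2 values on the same array. Such a ratio compares changes and says nothing about which gene is more abundant. HMOX1 minus HMOX2 was -2.24 and -1.85 on the vehicle arrays and 0.74 and 0.26 on the LY101-4B arrays. The groups differed by 2.54 ± 0.31 log2 units (SE from the pooled array spread), or 5.83-fold. BLVRA minus BLVRB was 1.06 and 1.20 with vehicle and 0.38 and 0.33 with LY101-4B, a difference of -0.77 ± 0.07 log2 units. In both pairs the groups did not overlap. The exact two-sided permutation p was 0.333 for each, also after Benjamini-Hochberg adjustment over the 3 pairs computed, and that is the smallest value that 2 arrays against 2 can give. The remaining pair, TFRC and SLC40A1, is not read, because SLC40A1 lay under the lower quartile of all 4 arrays. The ratio of FTH1 to FTL could not be formed.

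**Figure D3:**
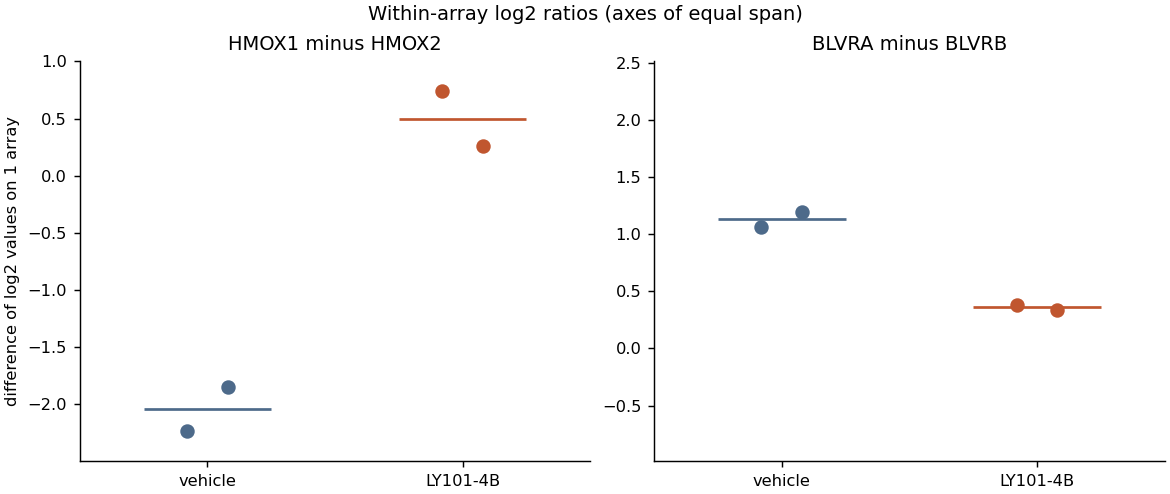
Within-array log2 ratio of 2 pairs of members on each array, vehicle in blue and LY101-4B in orange, lines at group means (n = 2 arrays each), axes of equal span. HMOX1 minus HMOX2 moves from about -2.05 to 0.50 and BLVRA minus BLVRB from 1.13 to 0.36.

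In the ferritin group FTL rose and NCOA4 did not pass. FTL, the light chain, read 11.83 and 11.71 with vehicle and 12.39 and 12.45 with LY101-4B. The treated arrays were close to each other and both above the vehicle arrays. The difference was 0.65 ± 0.09 log2 units (95% interval 0.42 to 0.88, limma adjusted p 0.0071). It was 0.59 without vehicle replicate 2, where the adjusted p was 0.063, and passed in the other 12 settings. FTL has processed pseudogenes, and their share of the hybridised signal was not tested. Arrays measure RNA, so the translational control that acts through the leader printed above was not measured. NCOA4, the ferritin receptor of autophagy, read 10.29 and 10.31 with vehicle and 10.19 and 10.31 with LY101-4B. The groups overlapped, and the difference was -0.05 ± 0.09 log2 units (95% interval -0.28 to 0.17, limma adjusted p 0.759). It turned to 0.03 under cyclic loess and to 0.0097 without LY101-4B replicate 1.

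Neither the importer nor the exporter passed. TFRC read 11.73 and 11.74 with vehicle and 11.54 and 11.56 with LY101-4B. Replicates lay 0.012 and 0.024 log2 units apart, and both treated arrays lay under both vehicle arrays. The difference was -0.18 ± 0.08 (95% interval -0.39 to 0.02, limma adjusted p 0.202). This SE is wider than the replicate gaps, since limma draws it toward the variance shared by all tested probe sets. With an intensity trend in the prior variance the same difference passed (adjusted p 0.016), and under cyclic loess it was -0.09. SLC40A1 read 4.35 and 4.37 with vehicle and 4.41 and 4.32 with LY101-4B, and its groups overlapped. All 4 values lay under the lower quartile of their array (4.43 to 4.47), and no detection calls were at hand to tell whether ferroportin RNA was above background. Its difference was 0.0043 ± 0.09 log2 units (95% interval -0.21 to 0.22), with a sign that changed in 4 of 12 settings.

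**Figure D4:**
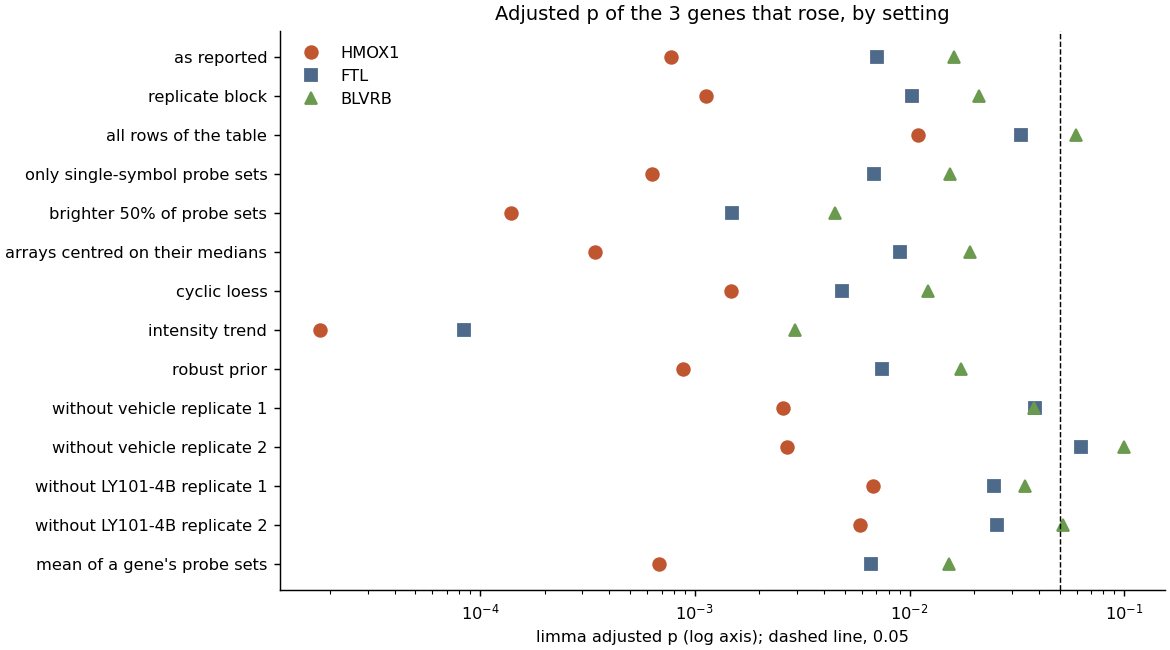
Limma adjusted p of HMOX1 (circles), FTL (squares) and BLVRB (triangles) under the reported setting and 13 alternatives, on a log axis with a dashed line at 0.05. HMOX1 stays left of the line throughout, FTL crosses it in 1 setting (0.063) and BLVRB in 3 (0.052 to 0.1001).

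By a fixed rule, the genes outside the list whose profiles over the 4 arrays lay closest to that of HMOX1 were SLC1A4, CLGN and CTH. Likeness was the Euclidean distance between values taken minus each gene's own vehicle mean, and it was 0.33, 0.36 and 0.38 log2 units. SLC1A4, a neutral amino acid transporter gene, read 6.11 and 6.03 with vehicle and 8.80 and 8.71 with LY101-4B. CLGN, which encodes the chaperone calmegin, read 4.24 and 4.49 with vehicle and 7.10 and 7.11 with LY101-4B. CTH, the cystathionine gamma-lyase gene, read 7.62 and 7.58 with vehicle and 10.16 and 10.23 with LY101-4B. Each rose by 2.60 to 2.74 log2 units, and on 4 arrays likeness to HMOX1 is mostly a like size of difference.

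The remaining genes of haem and iron handling were counted from 7 lists. Of 80 listed genes 73 had a single-symbol probe set, of which 10 were called higher and 8 lower by limma, and 55 did not pass. These are 13.7% and 11.0% of the genes, beside 9.10% and 10.5% of all probe sets. Leaving out either vehicle array took most of these calls away, as it did for the calls over all tested probe sets. The limma SE was then wider for each called gene, as for BOLA3 (0.15 against 0.09). The difference of BOLA3 stayed at -0.51, and that of ABCB6, 0.72 on all arrays, became 0.81 and 0.63. A fit without 1 array rests on 1 array in a group, so the number of its calls is not given here. With all 33297 rows of the table tested, 3 were higher and 3 lower, beside 3.49% and 3.82% of all rows. CPOX, MAFG, SLC39A8, SLC39A14, NFS1 and ISCU then kept their calls, and the other 12 calls were lost at adjusted p from 0.053 to 0.113. MAFG, SLC39A14 and NFS1 passed in all 13 settings, and no called gene changed sign in any.

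**Figure D5:**
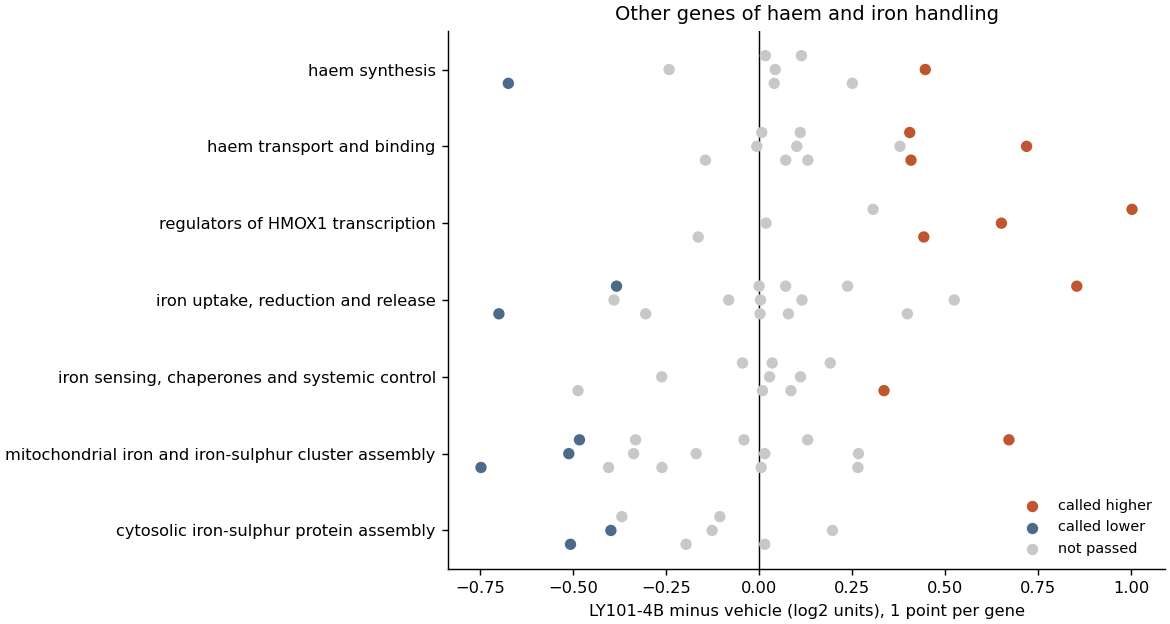
Difference between LY101-4B and vehicle in log2 units for the 73 measured genes of 7 lists of haem and iron handling, 1 point per gene, spread vertically for legibility; orange passed as higher, blue as lower, grey did not pass. Calls run from -0.75 (NFS1) to 1.00 (MAFG).

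Among the transcriptional regulators of HMOX1, 3 of 6 rose and 0 fell by limma, beside 9.10% and 10.5% of all probe sets. At an unadjusted limma p under 0.05 it was 4 and 0, beside 2760 and 3173 of all 18417 genes. The regulators' median difference was 0.37 log2 units. MAFG, a small MAF partner of both NRF2 and BACH1, read 8.54 and 8.53 with vehicle and 9.61 and 9.46 with LY101-4B. It rose by 1.00 ± 0.09 log2 units (limma adjusted p 0.0021). Its dimmer probe sets showed less, 0.72 (adjusted p 0.0039) and 0.24 (adjusted p 0.213), and the mean of the 3 gave 0.65. MAFF, another small MAF gene, rose by 0.65 ± 0.14, with 6.52 and 6.58 against 7.38 and 7.02. NFE2L2, which encodes NRF2, rose by 0.44 ± 0.09, with 9.57 and 9.56 against 9.93 and 10.09. The repressor gene BACH1 (0.31 ± 0.09, limma adjusted p 0.059), the NRF2 adaptor gene KEAP1 (-0.16 ± 0.10) and BACH2 (0.02 ± 0.11) did not pass, and were chosen for mention with their values known. When either vehicle array was left out, MAFF and NFE2L2 no longer passed (adjusted p 0.087 to 0.158), nor did NFE2L2 without LY101-4B replicate 2 (0.056).

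Of 8 haem synthesis genes 1 was called higher and 1 lower, 12.5% each. This lies near the 9.10% and 10.5% of all probe sets, and the median difference was 0.04. ALAS1, the first and rate-limiting enzyme of non-erythroid haem synthesis, rose 1.36-fold, from 9.78 and 9.82 to 10.28 and 10.22. CPOX, the coproporphyrinogen oxidase of the later pathway, fell 1.60-fold, from 7.86 and 7.79 to 7.07 and 7.24 (limma adjusted p 0.0081). CPOX no longer passed with vehicle replicate 1 left out (adjusted p 0.063). ALAS1 did not pass when either vehicle array (0.152 and 0.122) or LY101-4B replicate 1 (0.053) was omitted.

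Of 11 genes of haem transport and binding, 3 rose and 0 fell by limma, beside 9.10% and 10.5% of all probe sets. At an unadjusted limma p under 0.05 it was 4 and 0, beside 2760 and 3173 of all 18417 genes. The list's median difference was 0.11. ABCB6, a porphyrin transporter gene, rose 1.65-fold, from 6.52 and 6.34 to 6.98 and 7.32. SLC48A1, the endolysosomal haem importer HRG1, rose 1.33-fold, from 7.04 and 6.99 to 7.33 and 7.51. The haem-binding protein gene HEBP2 rose 1.32-fold, from 9.56 and 9.53 to 9.96 and 9.93. All 3 calls went when either vehicle array was omitted (adjusted p 0.051 to 0.222), and likewise with all rows tested (0.069 to 0.101). That of SLC48A1 also went without LY101-4B replicate 2 (0.078) and with median centring (0.074), and that of HEBP2 without LY101-4B replicate 1 (0.060).

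Among metal ion importers SLC39A14 rose and SLC39A8 fell. Of 15 genes of iron uptake, reduction and release 1 rose and 2 fell, with a median difference of 0.0037 log2 units. These are 6.67% and 13.3%, near the 9.10% and 10.5% of all probe sets. SLC39A14, the ZIP14 importer of zinc and non-transferrin iron, rose 1.81-fold, from 9.32 and 9.49 to 10.17 and 10.35 (limma adjusted p 0.0056). Its relative SLC39A8, ZIP8, fell 1.62-fold, from 6.51 and 6.65 to 5.79 and 5.96 (limma adjusted p 0.0090). STEAP3, the endosomal ferrireductase that works with TFRC, fell 1.31-fold, from 7.60 and 7.64 to 7.18 and 7.29. With vehicle replicate 2 left out SLC39A8 did not pass (adjusted p 0.064), and STEAP3 did not when either vehicle array or LY101-4B replicate 1 was omitted (0.086 to 0.226).

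By limma 1 of 10 genes of iron sensing, iron chaperones and systemic control rose and 0 fell. Over all probe sets it was 9.10% and 10.5%. At an unadjusted limma p under 0.05 the list had 1 and 1, beside 2760 and 3173 of all 18417 genes. The called gene was ACO1, iron regulatory protein 1, whose protein is a cytosolic aconitase when it holds an iron-sulphur cluster. It rose 1.26-fold, from 9.50 and 9.54 to 9.81 and 9.90, at an adjusted p of 0.049, just inside the threshold. The call was lost in 8 of 13 settings, including each that left out an array (adjusted p 0.064 to 0.286).

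Over the lists of mitochondrial iron with cluster assembly and of cytosolic assembly, 5 genes were called lower, among them an iron importer, and 1 higher. Over all probe sets 10.5% were called lower and 9.10% higher. In the mitochondrial list 1 of 15 rose and 3 fell by limma (median difference -0.17). In the cytosolic list 0 of 8 rose and 2 fell (median -0.16). At an unadjusted limma p under 0.05 the mitochondrial list had 3 higher and 7 lower, and the cytosolic list 0 and 3. Over all 18417 genes it was 2760 and 3173. NFS1, the cysteine desulphurase that supplies the sulphur, fell 1.68-fold, from 8.93 and 8.89 to 8.11 and 8.21 (limma adjusted p 0.0043). The scaffold gene ISCU rose 1.59-fold, from 8.66 and 8.70 to 9.26 and 9.44 (limma adjusted p 0.0084). BOLA3, a late-acting cluster factor, fell 1.43-fold, from 10.76 on both vehicle arrays to 10.31 and 10.19. SLC25A37, the mitochondrial iron importer mitoferrin 1, fell 1.40-fold, from 8.42 and 8.54 to 7.98 and 8.01, and by 1.57-fold on its dimmer probe set. In the cytosolic machinery NUBP1, a scaffold gene, fell 1.42-fold, from 8.88 and 8.90 to 8.31 and 8.45. CIAO1, of the targeting complex, fell 1.32-fold, from 8.85 and 8.94 to 8.45 and 8.54. Of these, ISCU, BOLA3, SLC25A37, NUBP1 and CIAO1 did not pass when either vehicle array was omitted (adjusted p 0.0505 to 0.228). SLC25A37 (0.055) and CIAO1 (0.083) also missed it without LY101-4B replicate 1.

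The arrays had medians from 5.88 to 5.97 log2 units, and replicates correlated at r = 0.997 (vehicle) and 0.994 (LY101-4B) across the 21214 tested probe sets. For the cell line, the keratin genes KRT8 and KRT18 read 11.86 to 13.00 on all arrays, and both fell. The other keratins listed did not pass. KRT19 read 9.06 to 9.28, with overlapping groups. KRT7 read 5.81 and 5.93 with vehicle and 6.07 and 6.10 with LY101-4B, a difference of 0.21 upward (limma adjusted p 0.174). The epithelial adhesion gene EPCAM lay under the lower quartile of every array, and the E-cadherin gene CDH1 read 4.44 to 4.63. At an unadjusted limma p under 0.05, 2760 of all 18417 genes were higher and 3173 lower. Of 4 mesenchymal markers, 0 passed so in either direction or were called, beside 9.10% and 10.5% of probe sets called higher and lower. Among these markers VIM, which encodes vimentin, read 12.47 to 12.66, ZEB1 7.75 to 7.88 and CDH2 4.50 to 4.88. FN1 lay under the lower quartile of every array. Of other cell types' markers, 0 of 4 leukocyte and 0 of 3 erythroid genes were called by limma in either direction, or passed at an unadjusted p under 0.05, and PTPRC, the defining leukocyte marker, read 3.36 to 3.56, under the lower quartile of all 4 arrays. CD68, a lysosomal protein gene used as a macrophage marker, read 8.02 and 7.93 with vehicle and 8.18 and 8.21 with LY101-4B. With LY101-4B PTPRC, under the lower quartile throughout, lay lower, and CD68 and CD14 lay higher. For these 3 of the 4 leukocyte genes the groups did not overlap, beside 58.0% of all tested probe sets. The summed log2 level of the 4 was 22.1 to 22.2 with vehicle and 22.5 with LY101-4B, and its part in the results was not tested. Of 6 fibroblast markers COL1A2 rose and COL3A1 fell, beside 9.10% and 10.5% of all probe sets called higher and lower. COL1A2 read 9.87 and 9.92 with vehicle and 10.40 and 10.33 with LY101-4B. COL3A1 read 6.85 and 6.58 with vehicle and 6.095 and 6.245 with LY101-4B. The summed log2 level of the fibroblast list was 35.0 to 35.8 with vehicle and 35.6 to 35.8 with LY101-4B. In such a sum a rise and a fall can cancel, and its part in the results was not tested.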

How the data were processed

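Total RNA from MiaPaCa2 cultures was hybridised to Human Gene 1.0 ST arrays, per the labels' protocols; the labelling kit they name is usually used for small RNA. The deposited table holds 1 log2 value per probe set and array, made with RMA per the submitters' processing notes. The software, its version and any filter on probe sets were not given in the sources used here. This procedure brings arrays to like distributions and compresses differences at low signal. No detection calls were used. All columns were mapped (0 left over). Genes came from the platform annotation: 19460 probe sets had 1 symbol, 1754 several and 12083 none.

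A linear model of group alone was fitted to all 21214 probe sets with a symbol (limma 3.58.1, R 4.3.3; 2 residual and 3.75 prior degrees of freedom), with Benjamini-Hochberg adjustment over all of them and a threshold of 0.05. Differences are LY101-4B minus vehicle. Array number limits the precision. Named genes are all members, up to 4 called genes per other list with the largest difference, and the 3 most like the member with the largest rise; others are marked. GC, CCAAT and TATA letters were added after the windows were seen; the TATA core, TATAAA, was in 1 member window (TFRC) and 11.5% of all. The members and lists were chosen with earlier results of these data known.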

Additional observations from a re-analysis of the deposited data

How the results depend on the processing

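Each result was recomputed under 13 alternatives: a replicate block, all rows, single-symbol probe sets, the brighter 50%, median centring, cyclic loess, an intensity trend, a robust prior, each array left out, and the mean of a gene's probe sets. Members called higher numbered 3, or 2 with all rows (BLVRB lost) and 1 to 3 with an array left out; members called lower numbered 0, or 1 (TFRC) with an intensity trend. Other pathway genes called higher numbered 10, or 3 with all rows, 8 with median centring and 9 with a robust prior. It was 13 under cyclic loess or an intensity trend, and 15 of 50 with a value among the brighter 50%. Those called lower numbered 8, or 3 with all rows and 14 with median centring. It was 12 under cyclic loess, an intensity trend or the brighter 50%. Shares of all tested probe sets ran from 3.49% (all rows) to 20.28% (brighter 50%) higher and from 3.82% to 26.55% lower. Median centring also moved the share of higher calls among all called probe sets from 46.3% to 35.9%. Differences that changed sign were all uncalled: HMOX2 (-0.019 with median centring; -0.044 to 0.136 with an array left out), NCOA4 (0.031 under cyclic loess; -0.113 to 0.0097 with an array left out) and SLC40A1 (-0.060 with median centring, -0.011 under cyclic loess; -0.039 to 0.048 with an array left out). The cause was not tested. Fits without an array take their spread from fewer arrays. The within-array ratios kept their signs in the 7 settings run, from 2.30 to 2.79 for HMOX1 minus HMOX2 and from -0.84 to -0.70 for BLVRA minus BLVRB. Replicate numbers are shared by the groups, but nothing says that they pair the cultures, and same-numbered deviations correlated at 0.116. With the replicate block 3 members rose and 0 fell, and 10 pathway genes rose and 8 fell. Of the 18 pathway calls 17 were kept; ACO1 was lost (adjusted p 0.057) and CYBRD1 gained (0.038), the latter named after its value was seen. SLC40A1, SLC39A8 and CLGN have no value among the brighter 50%.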

Other observations

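Because FTH1 was not analysed, probe sets that the annotation assigns to its pseudogenes and relatives were read, chosen before their values were seen. The brightest single-symbol probe set stood for each, and FTHL18P had 2, of which the dimmer was not read. FTH1P5 rose 1.70-fold, from 5.26 and 5.31 log2 units on the vehicle arrays to 5.98 and 6.12 on the LY101-4B arrays (0.76 ± 0.09, SE; limma adjusted p 0.0046). FTH1P3 read 6.51 and 6.29 against 6.67 and 6.83 (0.35 ± 0.12, limma adjusted p 0.098), FTHL17 differed by 0.37 ± 0.15 (limma adjusted p 0.162) and FTHL18P by -0.15 ± 0.08 (limma adjusted p 0.286), and none of these 3 passed. Whether FTH1 transcripts hybridise to these probe sets was not tested.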
